A study of Homo sapiens with 9 samples.

Results

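The libraries described here are the 3 of MDA-MB-231, a line derived from a triple-negative breast cancer, out of 9 RNA sequencing libraries in the series. They are a control, a library labelled GSK343 and a library labelled shEZH2, with 1 library each. GSK343 is a chemical that inhibits the enzyme EZH2, and shEZH2 stands for a hairpin RNA that targets its transcript. The labels give the control as untreated, but the table heads its column shControl, so the sources do not settle whether it held a control hairpin. All cells were grown in DMEM with fetal bovine serum and antibiotics, and the sources used here state no dose, duration or hairpin sequence. Genes were included when at least 1 of the 3 libraries had 1 RPKM or more (reads scaled by gene length and library size), which gave 12464 of 58037 genes. Where 3 RPKM values stand together, they are those of the control, the GSK343-labelled and the shEZH2-labelled library, in that order. Of the 12464 genes, 10790 reached 1 RPKM in all 3 libraries, and 241, 295 and 383 reached it only in the control, the GSK343-labelled and the shEZH2-labelled library.

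EZH2 is the enzyme within Polycomb repressive complex 2 (PRC2) that places methyl groups on lysine 27 of histone H3 and thereby helps to keep genes silent. SUZ12 and EED are needed for its activity, and EZH1 is a related enzyme that can take its place in the complex. An inhibitor blocks the enzyme without removing its transcript, whereas a hairpin acts on the transcript. In triple-negative breast cancer cells EZH2 is often abundant and has been studied both as a silencer of tumour suppressors and as a partner of NF-kB, the transcription factor family behind many inflammatory genes.

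The 3 libraries corresponded to 16759473, 14757043 and 18283426 reads (control, GSK343-labelled, shEZH2-labelled). Transcripts of the mitochondrial genome held 14.0%, 21.6% and 16.8% of the RPKM total. Of 10 MDA-MB-231 markers fixed for a check of the line, 9 were measured, among them the mesenchymal filament VIM (306, 299 and 212 RPKM) and the surface receptor CD44 (101, 93.6 and 127 RPKM). SPARC, the other one, stayed at 0.222 to 0.328 RPKM. The oestrogen and progesterone receptors ESR1 and PGR were near 0, while the luminal genes KRT19 (151, 141 and 201 RPKM) and SPDEF (24.4, 28.9 and 43.0 RPKM) were abundant. Of 11 leukocyte markers 10 were below 0.3 RPKM in every library, and the list summed to 6.07, 6.32 and 13.0 RPKM, nearly all of it CD14. Of 10 fibroblast and endothelial markers 3 were measured, and the list summed to 4.82, 6.12 and 7.82 RPKM. Genes that mark the line MDA-MB-436 (98 genes at 5 RPKM or more there and under 0.1 in the MDA-MB-231 control) summed in the 3 libraries to 0.131%, 0.722% and 0.634% of their level in the MDA-MB-436 control. The choice of genes used the MDA-MB-231 control, so its share is low by construction and not comparable with the other shares.

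EZH2 was below the control under both labels, and most so under the GSK343 label. Its RPKM was 27.4 in the control, 5.77 in the library labelled GSK343 and 16.4 in the library labelled shEZH2, from 2074, 385 and 1354 reads. The GSK343-labelled library had 4.74-fold less EZH2 than the control (95% counting interval 4.25 to 5.30) and the shEZH2-labelled library 1.67-fold less (1.56 to 1.79). Such intervals come from an exact conditional binomial test on the reads behind the RPKM. They cover counting error only and compare these libraries, not the conditions. The transcript was therefore lowest in the library whose label names an enzyme inhibitor. The order was the same in MDA-MB-436, another line of the series, with 38.9, 7.53 and 37.4 RPKM, so its shEZH2-labelled library was near its control. Whether the GSK343 and shEZH2 labels were exchanged was not tested. The groups are therefore called the libraries labelled GSK343 and shEZH2 throughout, and each value belongs to a label and not to a treatment. The other core subunits stayed close to the control: EED had 3.97, 4.84 and 4.08 RPKM. SUZ12 had 17.3, 15 and 15.8 RPKM, and EZH1 had 5.09, 5.79 and 5.53 RPKM. PHF19, an accessory subunit that helps to bring the complex to chromatin, was lower under both labels (41.7, 22.3 and 25.1 RPKM). PHF1, its relative, had 6.89, 8.93 and 11.5 RPKM. Of 12 measured PRC2 genes 1, EZH2, was 2-fold lower under the GSK343 label, and 0 were under the shEZH2 label. Among all 12464 genes 1.14% and 1.18% were 2-fold lower under these labels.

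With 1 library per condition, a difference between 2 libraries has no replicate check and gets no test. Differences are therefore given on the log2(RPKM + 1) scale, which understates changes of low genes, and counted past a mark of 1 (2-fold). At that mark 337 genes (2.70%) were higher and 142 (1.14%) lower in the GSK343-labelled library than in the control. In the shEZH2-labelled library 462 (3.71%) were higher and 147 (1.18%) lower. These shares over all genes are the background for the counts in gene groups below. For the mean of both differences the counts were 301 higher (2.41%) and 94 lower (0.754%). Both labelled libraries passed the mark in the same direction for 169 higher and 49 lower genes, but they share the control, so this overlap is not independent support. The excess of higher genes under the GSK343 label depended on the scaling: when the libraries were scaled to a common RPKM sum, 229 were higher and 206 lower, so the share of higher genes went from 70.4% to 52.6%. That scaling moved the median difference under the GSK343 label from 0.028 to -0.109, and the median under the shEZH2 label from 0.007 to -0.008. Short RNAs with few reads are part of these counts: 20 of 202 small RNA genes were higher and 23 lower in the mean of both, on a median of 3 reads. Among 10850 protein-coding genes 220 were higher and 53 lower.

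The purpose the study states is to examine expression after EZH2 is knocked down or its activity is blocked. The fit across genes took in a second line, since the MDA-MB-231 libraries alone leave 1 residual degree of freedom. limma was fitted to 6 libraries, those of MDA-MB-231 and of MDA-MB-436, with 4 means: the control and the targeted state (either label) of each line. The spread comes only from how far the GSK343-labelled and shEZH2-labelled libraries of a line differ, with 2 residual degrees of freedom, and the single control is assumed to vary like them. The labels do not say whether the libraries came from separate cultures, so p-values measure only the spread between these libraries. By limma with Benjamini-Hochberg adjustment 5 genes passed as higher (0.0401%) and 1 as lower (0.00802%) in targeted MDA-MB-231, at a threshold of 0.05. At an unadjusted limma p under 0.05 there were 2500 genes. Without any change 623 would be expected, provided that the single control varies like the labelled libraries. All genes share that control, so the 2500 are not independent of each other. At an adjusted limma p under 0.1 there were 217 higher and 79 lower. With the shEZH2-labelled MDA-MB-231 library left out, which leaves 1 residual degree of freedom, none passed, and the limma adjusted p of the 6 genes lay between 0.056 and 0.058. Their differences were about as large without it: IL1B had 3.63 against 3.47, LCN2 4.30 against 4.49 and NQO1 -2.03 against -2.07. With the GSK343-labelled one left out 890 were higher and 572 lower.

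Of the 5 genes called higher, 3 encode secreted proteins of innate immunity. PDZK1IP1 (ENSG00000162366.7, GRCh38 chromosome 1, 47183593 to 47191044), a small membrane protein also known as MAP17, had 6.18 RPKM in the control, 144 in the GSK343-labelled and 143 in the shEZH2-labelled library. The 2 labelled libraries were nearly equal, with the control far below them (ratios 23.3, interval 19.8 to 27.7, and 23.1, interval 19.6 to 27.4). By limma it rose by 4.33 ± 0.34 on the log2 scale (± gives the 95% confidence limits, adjusted p = 0.00375). LCN2 (ENSG00000148346.11, chromosome 9, 128149071 to 128153455), a siderophore-binding protein of innate immunity, had 9.22, 201 and 259 RPKM and rose by 4.49 ± 0.66 (limma adjusted p = 0.0269). IL1B (ENSG00000125538.11, chromosome 2, 112829751 to 112836903), the secreted fever cytokine, had 5.15, 75.1 and 59.6 RPKM and rose by 3.47 ± 0.45 (limma adjusted p = 0.0253). CXCL1 (ENSG00000163739.4, chromosome 4, 73869393 to 73871242), a chemokine that attracts neutrophils, had 33.5, 434 and 302 RPKM and rose by 3.39 ± 0.60 (limma adjusted p = 0.0415). In each of these 4 genes both labelled libraries stood far above the control. The fifth gene called higher, the ribosomal protein pseudogene RPL39P40, rested on 0, 10 and 11 reads (0, 4.64 and 4.12 RPKM). It was included only through the labelled libraries, where it was high, so its call carries little weight.

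**Figure D1:**
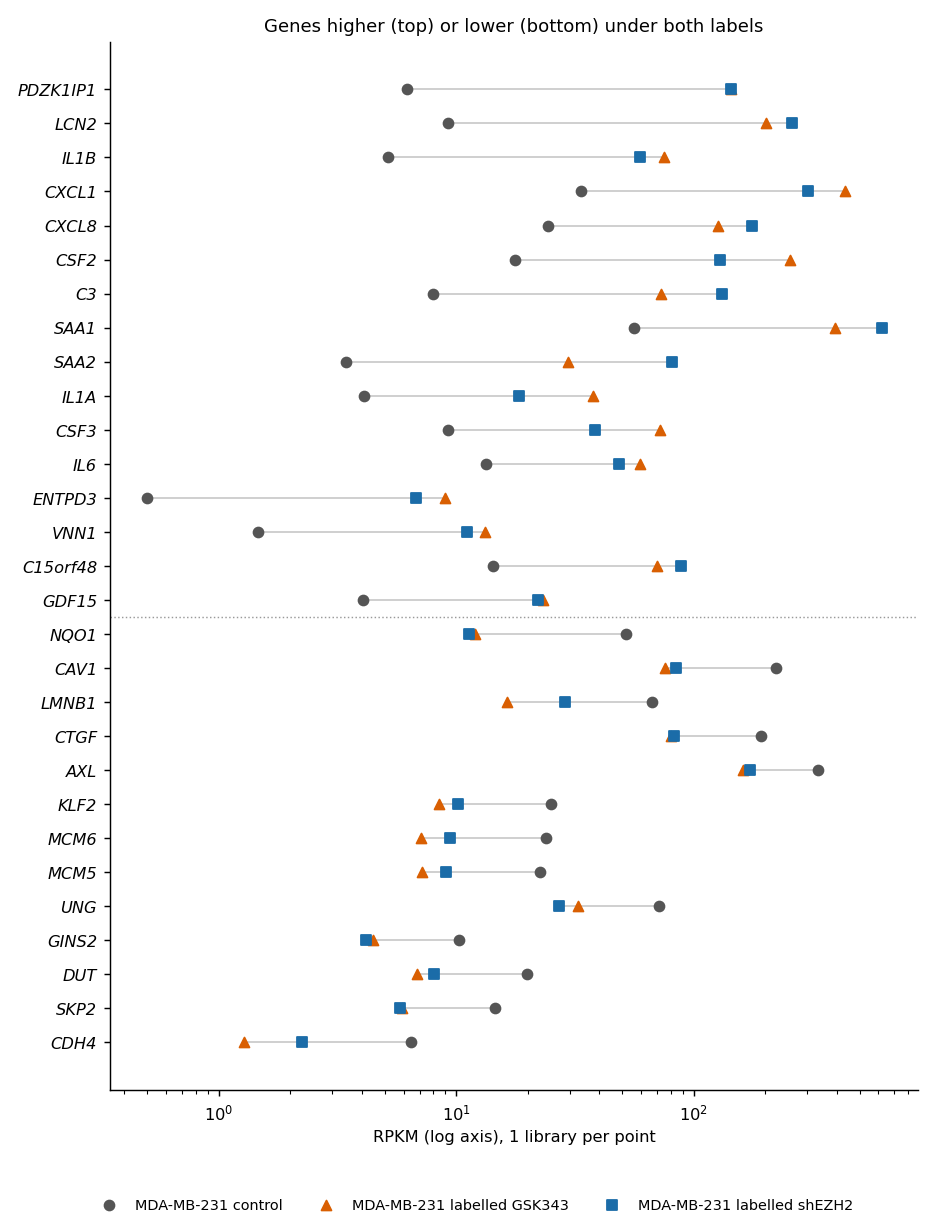
RPKM (log axis) in the MDA-MB-231 control (circles), the library labelled GSK343 (triangles) and the library labelled shEZH2 (squares), 1 library per point, for genes higher (above the dotted line) or lower (below it) under both labels. In every gene drawn the control lies outside the range of the labelled libraries; LCN2 goes from 9.22 to 201 and 259 RPKM and NQO1 from 51.9 to 12.0 and 11.3.

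All 4 measured of 6 neutrophil chemokines were at least 2-fold higher under both labels, with median differences of 2.39 (GSK343) and 2.14 (shEZH2), against 0.03 and 0.01 over all 12464 genes, of which 2.70% and 3.71% were 2-fold higher. CXCL8, the main human neutrophil attractant, had 24.3, 127 and 176 RPKM. CXCL2 had 5.93, 36.2 and 18.3 RPKM and CXCL3 1.59, 12.2 and 5.57 RPKM, both highest under the GSK343 label. CXCL1, CXCL2 and CXCL3 are close in sequence, so reads may have been split among them. CXCL5 and CXCL6, the other 2 of the list, had 2 reads or fewer in each library. Apart from CXCL1, these chemokines did not pass in limma (CXCL8 2.57 ± 0.60, adjusted p = 0.0526; CXCL2 1.95 ± 0.96, adjusted p = 0.108).

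The bases in front of these genes are shown because the genes were higher together and several of them carry a motif read by NF-kB. The letters GGANNTTCC, where N is any base, were searched on both strands in the 250 bases before the start of each gene in the RefSeq promoter table (GRCh38.p14). These RefSeq starts differ from the GENCODE gene coordinates for some genes: those of LCN2, IL6, CXCL8 and CXCL2 lie inside them. The letters occurred in 1350 of 35116 windows (3.84%), or for 1286 of 27305 genes (4.71%). Of 20 measured chemokines, cytokines, acute-phase and complement genes that were 2-fold higher in the mean of both libraries, 14 had a window and 8 of them held the motif. Of the 12 other measured genes of these lists with a window, 3 held it. The motif was chosen after the values were seen, so these counts are a description and not a test of enrichment. The genes with the motif were LCN2, CXCL1, CSF2, CXCL8, CXCL2, IL6, CXCL3 and IL32, while IL1B and IL1A had no match. A match is a description of the letters and not evidence of binding. In the sequences the match is in capitals, each is written 5′ to 3′ on the strand of the gene, and the last base is the one before the annotated start. In LCN2 the letters occur on the opposite strand, so its capitals are their reverse complement.
CXCL1: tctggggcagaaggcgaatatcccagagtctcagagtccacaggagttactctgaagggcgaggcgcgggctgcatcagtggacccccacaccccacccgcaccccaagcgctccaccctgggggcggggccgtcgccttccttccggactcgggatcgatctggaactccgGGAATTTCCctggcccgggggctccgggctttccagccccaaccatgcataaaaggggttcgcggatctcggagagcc
CXCL2: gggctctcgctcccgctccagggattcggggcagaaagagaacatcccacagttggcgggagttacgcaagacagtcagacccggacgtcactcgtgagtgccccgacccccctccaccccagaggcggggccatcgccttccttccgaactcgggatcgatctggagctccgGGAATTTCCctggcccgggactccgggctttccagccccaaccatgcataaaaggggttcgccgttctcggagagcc
CXCL8: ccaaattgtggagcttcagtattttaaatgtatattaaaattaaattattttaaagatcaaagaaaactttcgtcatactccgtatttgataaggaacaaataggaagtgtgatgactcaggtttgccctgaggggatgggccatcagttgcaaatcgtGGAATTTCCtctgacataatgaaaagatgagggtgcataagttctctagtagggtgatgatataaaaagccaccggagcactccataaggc
IL6: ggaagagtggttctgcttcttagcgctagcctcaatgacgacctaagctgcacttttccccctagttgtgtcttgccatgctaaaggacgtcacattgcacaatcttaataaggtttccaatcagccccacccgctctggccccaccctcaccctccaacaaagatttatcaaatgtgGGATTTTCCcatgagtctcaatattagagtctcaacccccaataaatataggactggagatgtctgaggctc
CSF2: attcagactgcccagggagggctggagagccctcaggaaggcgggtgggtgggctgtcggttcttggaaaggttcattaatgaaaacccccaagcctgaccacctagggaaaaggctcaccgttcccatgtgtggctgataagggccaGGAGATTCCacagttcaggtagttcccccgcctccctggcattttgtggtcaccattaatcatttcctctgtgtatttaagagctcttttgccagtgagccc
LCN2: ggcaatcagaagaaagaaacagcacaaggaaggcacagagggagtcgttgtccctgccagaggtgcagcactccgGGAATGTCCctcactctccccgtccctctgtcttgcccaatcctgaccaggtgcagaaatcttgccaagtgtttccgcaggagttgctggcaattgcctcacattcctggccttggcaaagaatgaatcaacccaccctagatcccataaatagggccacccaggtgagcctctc
The windows lie at chr4:73869143-73869392 for CXCL1, chr4:74099196-74099445 for CXCL2, chr4:73740319-73740568 for CXCL8, chr7:22726950-22727199 for IL6, chr5:132073539-132073788 for CSF2 and chr9:128149203-128149452 for LCN2. CXCL2 is on the minus strand and the other 5 on the plus strand. In the 3 CXCL windows, in IL6 and in CSF2 the match begins between 72 and 102 bases before the start, and in LCN2 it begins 175 bases before it. The longest run of bases shared by the CXCL1 and CXCL2 windows is 42 bases long and lies after the match. The match itself sits in another, shorter stretch that is identical in both windows, and the CXCL3 window has nearly the same stretch. The matches of CXCL1, CXCL2 and CXCL3 are therefore not independent of each other. The AP-1 letters TGANTCA, searched in the same way, occurred in 6.57% of windows, or for 8.06% of genes. They occurred in 3 of the same 14 genes (LCN2, CXCL8 and IL1A) and in 3 of the 12 other measured genes with a window.

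Of 16 measured cytokines and inflammatory growth factors 7 were 2-fold higher under each label and 0 lower (medians 0.89 and 0.97). Over all genes 2.70% and 3.71% were 2-fold higher under the GSK343 and shEZH2 labels. CSF2, which drives granulocyte and macrophage growth, had 17.6, 254 and 129 RPKM, so it was 14.5-fold (12.7 to 16.6) and 7.32-fold (6.38 to 8.42) above the control. CSF3, the neutrophil growth factor, had 9.19, 72.3 and 38.5 RPKM. IL1A, the cell-bound relative of IL1B, had 4.07, 37.6 and 18.4 RPKM. These 3 genes and IL24 (5.31, 48.8 and 12.8 RPKM) were highest under the GSK343 label. IL6, the inducer of the acute-phase response, was similar under both (13.3, 59.3 and 48.4 RPKM; limma 1.93 ± 0.42, adjusted p = 0.0526). IL32 had 5.0, 13.6 and 11.6 RPKM, and IL11 had 48.3, 94.1 and 96.0 RPKM. Among 6 measured other chemokines 2 were 2-fold higher in the GSK343-labelled and 1 in the shEZH2-labelled library: CCL26, an eosinophil attractant, had 0.845, 5.28 and 3.33 RPKM and CXCL16 0.918, 3.13 and 2.82 RPKM. Both were below 1 RPKM in the control, so they were included only through the labelled libraries, where they were high. CCL26 rested on 10 reads in the control.

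Several acute-phase and complement genes were higher too. Of 14 measured, 5 were 2-fold higher in the GSK343-labelled and 8 in the shEZH2-labelled library, with medians of 0.69 and 1.29 and 0 lower. The shares of 2-fold higher genes over all genes were 2.70% and 3.71%. SAA1, a lipoprotein-bound acute-phase protein, had 56.2, 393 and 619 RPKM, and its near-identical neighbour SAA2, with which reads may be shared, had 3.43, 29.6 and 81.3 RPKM. C3 (chromosome 19, 6677704 to 6730562), the central protein of complement, had 7.95, 72.5 and 131 RPKM. The shEZH2-labelled library was 1.81-fold above the GSK343-labelled one for C3 (1.77 to 1.86). C1R, the protease that starts the classical pathway, had 1.78, 3.55 and 8.35 RPKM, and its inhibitor SERPING1 had 0.580, 1.35 and 3.72 RPKM. SERPING1 was below 1 RPKM in the control, so it was included only through the labelled libraries. For each of these 5 genes the shEZH2-labelled library was highest. Others did not follow: CD55, which shields cells from complement, was equal under both labels (40.8, 55.8 and 55.5 RPKM). CD59, another such shield (62.3, 55.4 and 54.2 RPKM), and the pentraxin PTX3 (43.6, 37.7 and 37.2 RPKM) lay slightly below the control under both.

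The measured subunits of NF-kB itself stayed within 2-fold of the control, while several of its target genes did not. Of 20 measured subunits and feedback regulators 7 were 2-fold higher in the GSK343-labelled and 4 in the shEZH2-labelled library (medians 0.37 and 0.57). Among all 12464 genes 2.70% and 3.71% were 2-fold higher under these labels. RELA had 43.3, 46.6 and 41.8 RPKM, RELB 14.7, 14.8 and 13.0, NFKB1 14.0, 10.6 and 8.58, and NFKB2 33.1, 41.0 and 49.6. The inhibitor NFKBIA had 38.4, 49.5 and 45.1 RPKM. ICAM1, which binds leukocytes, had 33.0, 80.4 and 135 RPKM, and SOD2, the mitochondrial superoxide dismutase, had 5.15, 15.8 and 17.9 RPKM. PTGS2, the inducible prostaglandin synthase, had 1.47, 8.95 and 4.80 RPKM. TNFAIP3, the deubiquitinase that ends NF-kB signalling, was highest under the GSK343 label (5.46, 20.7 and 9.27 RPKM).

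**Figure D2:**
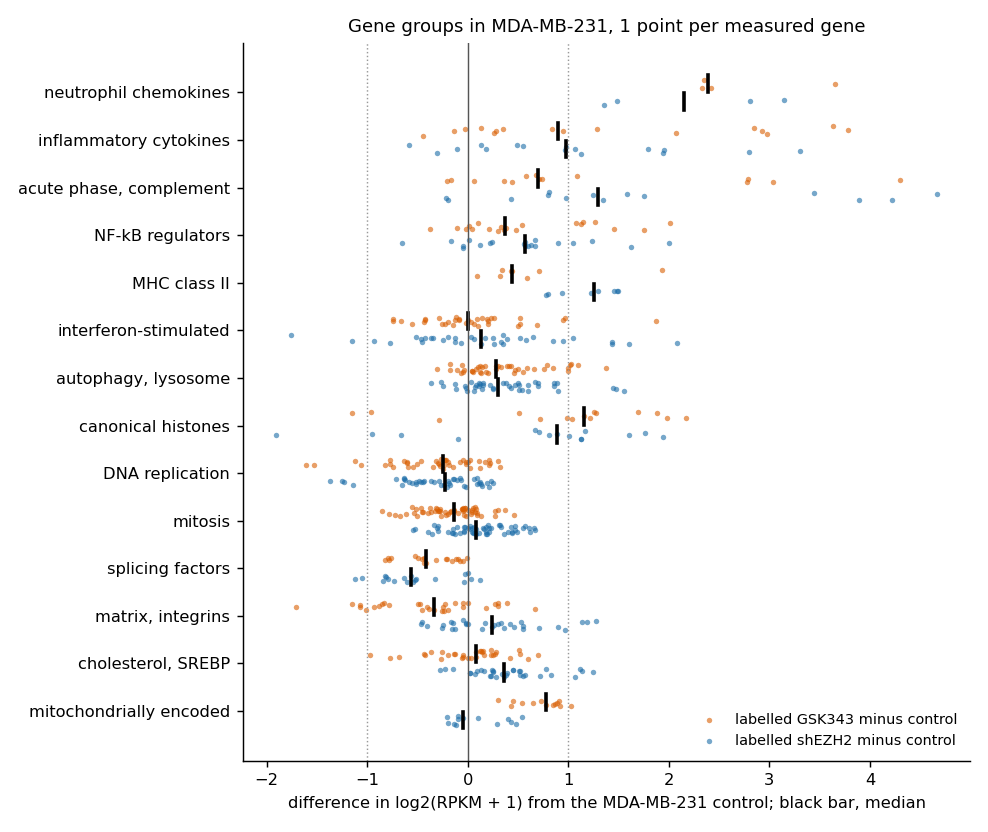
Differences in log2(RPKM + 1) from the MDA-MB-231 control for the measured genes of 14 groups, for the GSK343-labelled (orange) and shEZH2-labelled (blue) library; black bars are medians and dotted lines mark 2-fold. The neutrophil chemokines have medians of 2.39 and 2.14, DNA replication genes -0.25 and -0.22, and the mitochondrially encoded genes 0.78 and -0.05.

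Interferon-stimulated genes had medians close to those over all genes, 0.00 in the GSK343-labelled and 0.13 in the shEZH2-labelled library. Of 35 measured, 1 was 2-fold higher and 0 lower under the GSK343 label, and 5 were higher and 2 lower under the shEZH2 label. The median for the mean of both was 0.06, and -0.01 when scaled to a common RPKM sum. Among all 12464 genes 2.70% were 2-fold higher and 1.14% lower under the GSK343 label, and 3.71% and 1.18% under the shEZH2 label. IFI6, a mitochondrial survival protein, stood out with 12.5, 48.4 and 56.0 RPKM. STAT2, which carries the interferon signal, had 6.32, 13.3 and 18.8 RPKM, and IFITM1, a membrane protein against virus entry, 11, 16.1 and 35.5 RPKM. OASL, an antiviral sensor, was lower, at 10.1, 5.65 and 2.29 RPKM. Among 15 measured MHC class I genes 0 were 2-fold higher in the GSK343-labelled and 1 in the shEZH2-labelled library, HLA-B (42.7, 64.1 and 90.8 RPKM).

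MHC class II genes, which present peptides to helper T cells, were above the control under both labels in all 8 measured genes. Under the shEZH2 label 5 of the 8 were at least 2-fold higher, and under the GSK343 label 1 (medians 1.26 and 0.43). Among all 12464 genes 3.71% and 2.70% were 2-fold higher under these labels, and 6309 and 6630 lay above the control. HLA-DRA had 12.9, 19.8 and 38.1 RPKM and HLA-DRB1 10.8, 14.8 and 31.0 RPKM. HLA-DPA1 had 1.37, 2.22 and 4.51 RPKM, HLA-DPB1 1.65, 2.36 and 5.49, and the chaperone CD74 232, 246 and 397. In these 5 genes the shEZH2-labelled library was highest. CD14, a marker of monocytes, had the same order (5.79, 5.82 and 12.5 RPKM), with 10 other leukocyte markers below 0.3 RPKM. Its part in this result was not tested. CTSS, the protease that trims the class II chaperone, had the other order (3.78, 17.2 and 12.3 RPKM). Reads of HLA genes may be shared among family members.

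Autophagy and lysosome genes mostly lay above the control. Of 42 measured, 6 were 2-fold higher in the GSK343-labelled and 3 in the shEZH2-labelled library, and 34 lay above 0 under each (medians 0.28 and 0.30), where 6630 and 6309 of all 12464 genes lay above 0. WIPI1, which marks forming autophagosomes, had 7.96, 22.2 and 23.3 RPKM, and the autophagosome protein MAP1LC3A 2.61, 6.35 and 8.97. The lysosomal enzymes GAA (7.31, 15.6 and 23.3 RPKM) and NEU1 (2.35, 6.18 and 5.07 RPKM) were higher as well. The cargo receptor SQSTM1 had 36.9, 76.1 and 52.6 RPKM. Of 26 measured stress genes 4 were higher under the GSK343 label, and 2 higher and 1 lower under the shEZH2 label. For both groups, the shares over all genes were 2.70% higher and 1.14% lower under the GSK343 label, and 3.71% and 1.18% under the shEZH2 label. GDF15, a stress cytokine, had 4.06, 23.2 and 22.0 RPKM, and CEBPB, a transcription factor of the acute phase, 38.0, 85.7 and 83.6. ASNS, which makes asparagine, was lower, at 14.2, 7.50 and 6.24 RPKM.

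Histone genes were among the groups with the largest medians (1.16 and 0.89). Of 15 measured, 9 were 2-fold higher and 1 lower under the GSK343 label, and 7 higher and 1 lower under the shEZH2 label. Over all genes 2.70% were higher and 1.14% lower under the GSK343 label, and 3.71% and 1.18% under the shEZH2 label. HIST1H2BD had 14.9, 57.3 and 52.9 RPKM, HIST1H2BJ 4.71, 24.7 and 21.0, and HIST1H4H 3.28, 15.9 and 12.0. HIST2H2AC was lower (2.75, 0.695 and 0.00 RPKM), from 18, 4 and 0 reads, and was included only through the control, where it was high. H1F0, a linker histone of cells that leave the cycle, had 145, 73.8 and 74.5 RPKM. Histone genes resemble each other, so the share of reads each receives is uncertain.

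NQO1 was the 1 gene that fell by limma. This quinone reductase (ENSG00000181019.12, chromosome 16, 69706996 to 69726951), a target of the antioxidant factor NRF2, had 51.9 RPKM in the control, 12.0 in the GSK343-labelled and 11.3 in the shEZH2-labelled library. It fell by 2.07 ± 0.32 on the log2 scale (limma adjusted p = 0.0269), and both labelled libraries were about equal. Of 21 measured NRF2 targets and ferritin genes it was the only one 2-fold lower under either label, and 1 was 2-fold higher under the shEZH2 label (medians -0.14 and -0.15). Among all 12464 genes 1.14% and 1.18% were 2-fold lower under the GSK343 and shEZH2 labels, and 3.71% were higher under the shEZH2 label. SLC7A11, the cystine transporter, had 10.4, 6.58 and 5.78 RPKM, and FTH1, the ferritin heavy chain, 200, 337 and 291 RPKM.

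The other genes lower under both labels came from several systems, among them 2 of 12 caveolae and lamina genes. The shares of 2-fold lower genes over all genes were 1.14% (GSK343 label) and 1.18% (shEZH2 label). CAV1, the main protein of caveolae, had 222, 75.4 and 84.6 RPKM, and LMNB1, lamin B1 of the nuclear lamina, 66.5, 16.4 and 28.7 RPKM. CTGF, a matrix protein induced by YAP, had 192, 80.6 and 82.8 RPKM, and AXL, a receptor tyrosine kinase typical of this line, 334, 162 and 172 RPKM. In limma CAV1 (-1.46 ± 0.36, adjusted p = 0.0536) and CTGF (-1.23 ± 0.31, adjusted p = 0.056) lay just outside the threshold. The cadherin CDH4 (6.46, 1.27 and 2.24 RPKM) and SKP2 (14.5, 5.93 and 5.80 RPKM), which marks cell-cycle inhibitors for destruction, were lower too. Ranked without a minimum of reads, 6 of the first 10 lower genes are short RNAs, such as MIR6894, at 3.14 RPKM in the control and 0 in both others, and RNU6-216P, at 2.29 and 0. MIR6894 and RNU6-216P rested on 3 and 4 reads in the control and were included only through it, where they were high.

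DNA replication genes had medians below 0 under both labels, which mitosis genes did not. Of 44 measured replication genes 4 were 2-fold lower under each label and 0 higher (medians -0.25 and -0.22). Over all genes 1.14% and 1.18% were 2-fold lower under the GSK343 and shEZH2 labels, with medians of 0.03 and 0.01. The helicase subunits MCM6 (23.8, 7.13 and 9.44 RPKM) and MCM5 (22.6, 7.19 and 9.04 RPKM), the helicase partner GINS2 (10.3, 4.44 and 4.16 RPKM) and UNG, which removes uracil from DNA (71.7, 32.5 and 27.2 RPKM), were among the lowest. PCNA, the sliding clamp, had 122, 68.3 and 86.3 RPKM and TYMS, which makes thymidylate, 66.1, 38.3 and 41.9. In RNA from a whole culture, fewer cells that copy their DNA and less of these transcripts per cell cannot be told apart. Of 57 measured mitosis genes 0 passed the mark under either label (medians -0.14 and 0.08). PLK1 had 59.7, 34.3 and 41.0 RPKM, while CDK1, the kinase that starts mitosis, had 28.7, 37.5 and 46.4. MKI67, a marker of cycling cells, had 50.2, 27.4 and 43.5 RPKM. CDKN1A, the inhibitor p21, had 51.5, 105 and 120 RPKM.

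Splicing factors were shifted downward without many passing the mark. Of 19 measured, 0 lay above 0 in the GSK343-labelled and 2 in the shEZH2-labelled library (medians -0.42 and -0.57), and 2 were 2-fold lower, both under the shEZH2 label. These were SRSF1 (76.0, 44.5 and 34.4 RPKM) and HNRNPD (84.1, 47.2 and 40.0 RPKM). By comparison, 6630 and 6309 of all 12464 genes lay above 0 under the GSK343 and shEZH2 labels. The shares of 2-fold lower genes over all genes were 1.14% and 1.18%. HNRNPA2B1 had 166, 96.2 and 95.8 RPKM.

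Tumour suppressors described as silenced by EZH2 did not move one way. Of 13 measured of 25 listed, 3 were 2-fold higher and 2 lower under the GSK343 label, and 1 higher and 1 lower under the shEZH2 label (medians -0.25 and -0.40). The shares over all genes were 2.70% higher and 1.14% lower under the GSK343 label, and 3.71% and 1.18% under the shEZH2 label. CDKN1A and FBXO32, a ubiquitin ligase of muscle wasting (7.64, 20 and 15.3 RPKM), were higher. KLF2, a vessel-wall transcription factor, had 25.0, 8.43 and 10.2 RPKM, and TIMP3, an inhibitor of matrix proteases, had 164, 68.1 and 96.5 RPKM, both lower. Of 39 HOX genes, classic targets of Polycomb, 3 were measured and 0 passed the mark: HOXB9 had 15.2, 29 and 24.2 RPKM, and HOXC6 and HOXD1 stayed at or below 1.11 RPKM. Of 57 other developmental factors 17 were measured. One, WT1, was 2-fold higher under the shEZH2 label (1.58, 2.75 and 6.0 RPKM).

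The labelled libraries were also compared with each other, a difference that holds no control. In it 97 genes (0.778%) were at least 2-fold higher in the GSK343-labelled library and 180 (1.44%) in the shEZH2-labelled one. Among genes with at least 50 reads in 1 library the counts were 32 and 125. Scaled to a common RPKM sum they were 58 and 238.

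MMP3 and MMP1, proteases that cut matrix and collagen, stood highest under the GSK343 label. MMP3 (chromosome 11, 102835801 to 102843803) had 2.07 RPKM in the control, 194 in the GSK343-labelled and 12.2 in the shEZH2-labelled library, so the labelled libraries differed 15.9-fold (14.5 to 17.6). MMP1, its neighbour on the same chromosome (102789920 to 102798160), had 281, 2585 and 861 RPKM. Of 21 measured matrix proteases and inhibitors, 4 were 2-fold higher and 1 lower than the control under the GSK343 label, and 5 higher and 1 lower under the shEZH2 label. The shares over all genes were 2.70% higher and 1.14% lower under the GSK343 label, and 3.71% and 1.18% under the shEZH2 label. ANGPTL4, a secreted inhibitor of lipoprotein lipase (1.39, 7.51 and 1.48 RPKM), and PPP1R15A, which restarts translation after stress (79.4, 197 and 86.1 RPKM), were high under the GSK343 label and near the control under the shEZH2 label. SUN3 (1.21, 12.5 and 3.57 RPKM) and LCP1, an actin bundler of blood cells (3.62, 21.7 and 7.79 RPKM), were above it under both. RPPH1, the RNA of ribonuclease P, had the largest difference of all, 21.8, 45.4 and 0.0857 RPKM from 233, 427 and 1 reads. In MDA-MB-436 it showed 6.26, 34.8 and 0.00 RPKM. No source used here states whether counting used the strand, so reads of genes that overlap RPPH1 cannot be told apart from its own.

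KDELR1, like EZH2, was lowest in the GSK343-labelled library in both lines. This receptor, which returns proteins to the endoplasmic reticulum, had 200 RPKM in the control, 71.4 in the GSK343-labelled and 210 in the shEZH2-labelled library, and 127, 35.1 and 119 RPKM in MDA-MB-436. For KDELR1 both shEZH2-labelled libraries were near their controls.

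**Figure D3:**
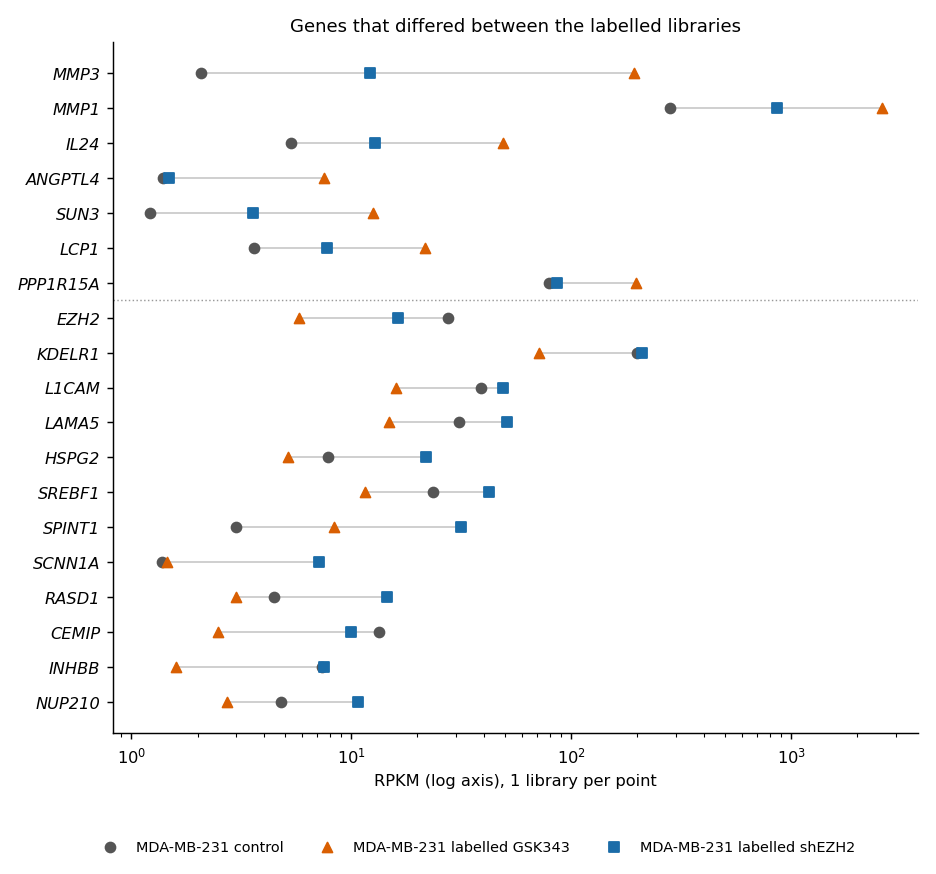
RPKM (log axis) in the MDA-MB-231 control (circles), the library labelled GSK343 (triangles) and the library labelled shEZH2 (squares), 1 library per point, for genes higher (above the dotted line) or lower (below it) in the GSK343-labelled than in the shEZH2-labelled library. MMP3 goes from 12.2 (shEZH2 label) to 194 RPKM (GSK343 label), and KDELR1 from 210 to 71.4.

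Of 31 measured matrix proteins and integrins 3 were at least 2-fold higher in the shEZH2-labelled than in the GSK343-labelled library (LAMA5, ITGB4 and COL13A1) and 0 lower. Over all genes 1.44% were higher and 0.778% lower in that comparison. HSPG2, the heparan sulfate proteoglycan perlecan, had 7.84, 5.15 and 21.8 RPKM, and LAMA5, a laminin chain, 30.9, 14.8 and 51.1 RPKM. L1CAM, a neural adhesion molecule, had 39.0, 16.0 and 48.9 RPKM. Against the control 5 of the 31 were 2-fold lower and 0 higher under the GSK343 label, and 3 higher and 0 lower under the shEZH2 label (medians -0.34 and 0.24). The matching shares over all genes were 1.14% lower and 2.70% higher, and 3.71% higher and 1.18% lower. ITGB4 (53, 15.6 and 39.6 RPKM) and its partner ITGA6 (95.6, 45.0 and 69.3 RPKM), which anchor cells to laminin, were lowest under the GSK343 label, as were COL13A1 (42.4, 18.6 and 41.9 RPKM) and COL8A1 (31.1, 14.3 and 25.7 RPKM). SPINT1, an inhibitor of cell-surface proteases, was above the control under both labels but most under shEZH2 (2.98, 8.34 and 31.6 RPKM). The sodium channel subunit SCNN1A (1.38, 1.46 and 7.14 RPKM) and RASD1, a small GTPase (4.47, 2.99 and 14.5 RPKM), were high under the shEZH2 label and near or below the control under the GSK343 label. CEMIP, which helps to break down hyaluronan (13.4, 2.49 and 9.98 RPKM), and INHBB, an activin subunit (7.36, 1.59 and 7.49 RPKM), were lowest under the GSK343 label. ID1, which blocks transcription factors of the helix-loop-helix type, had the same order (26.6, 6.21 and 17.7 RPKM).

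Of the lipid synthesis genes SREBF1 and SCD were lowest under the GSK343 label and highest under the shEZH2 label. SREBF1, the transcription factor that switches on fatty acid synthesis, had 23.5, 11.5 and 42.5 RPKM. Of 33 measured cholesterol synthesis genes and SREBP targets 0 passed the mark under the GSK343 label and 4 were higher under the shEZH2 label (medians 0.08 and 0.36), and 19 and 30 lay above 0. Among all 12464 genes 2.70% and 3.71% were 2-fold higher under these labels, and 6630 and 6309 lay above 0. SCD, which makes monounsaturated fatty acids, had 88.7, 74.1 and 197 RPKM, and TM7SF2, a reductase of sterol synthesis, 3.83, 5.95 and 10.4 RPKM. In TM7SF2 the GSK343-labelled library lay above the control too.

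The difference between the labelled libraries went along with gene length and mitochondrial RNA. Among 10885 genes with at least 50 reads, the difference of the GSK343-labelled from the shEZH2-labelled library had a Spearman correlation of -0.31 with exon length across genes, which are not independent and share both libraries. The median difference was 0.21 for 534 genes with up to 1500 exonic bases and -0.04 for 6771 genes above 4000. Against the control the correlation was -0.23 for the GSK343 label and 0.04 for the shEZH2 label. The median exon length was 2014 bases in the 32 genes higher under the GSK343 label and 4988 in the 125 genes higher under the shEZH2 label, against 4871 over all 10885 genes. The first set was thus shorter than genes at large and the second close to them. All 13 mitochondrially encoded genes were above the control under the GSK343 label (median 0.78), and 6 under the shEZH2 label (median -0.05). MT-ND4, of respiratory complex I, had 3523, 6662 and 4731 RPKM. The part of length and of mitochondrial RNA in the differences between the labelled libraries was not tested.

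The response of MDA-MB-231 was set against that of MDA-MB-436. The libraries labelled MDA-MB-453 were left out of the fit. In them the 98 genes that mark MDA-MB-436 summed to 41.7% to 50% of the MDA-MB-436 control, and 72 genes that mark MDA-MB-231 to 46.6% to 62.2% of the MDA-MB-231 control. In the same limma model 0 genes (0%) differed in response between the lines at an adjusted p of 0.05, and 1532 did at an unadjusted p under 0.05. Without any difference 623 would be expected, under the same assumption on the single controls. The smallest adjusted p was 0.0628, that of PDZK1IP1, whose response was larger in MDA-MB-231 by 3.56 ± 0.48. In MDA-MB-436 its RPKM was 4.81 in the control, 8.35 in the GSK343-labelled and 9.41 in the shEZH2-labelled library.

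Among the genes with the smallest p of that difference, IL1B had 131, 250 and 245 RPKM in MDA-MB-436, so its control was already higher there than either labelled library of MDA-MB-231. Its response was larger in MDA-MB-231 by 2.56 ± 0.63 (limma adjusted p = 0.334). TNFSF15, a cytokine of the tumour necrosis factor family, had 4.30, 18.5 and 16.0 RPKM in MDA-MB-231 and at most 0.0427 in MDA-MB-436. H1F0 had opposite directions, with 52.6, 115 and 125 RPKM in MDA-MB-436 (difference -2.13 ± 0.48, limma adjusted p = 0.30). NME4, a mitochondrial nucleotide kinase, was higher in MDA-MB-231 (17.0, 36.0 and 37.3 RPKM) and lower in MDA-MB-436 (56.6, 37.1 and 37.3 RPKM). The neuropeptide precursor VGF had 2.10, 1.23 and 1.05 RPKM in MDA-MB-231 and 6.85, 32.3 and 27.8 in MDA-MB-436. None of these differences passed the adjusted threshold. KLF2, lower in MDA-MB-231, had 11.5, 27.3 and 15.4 RPKM in MDA-MB-436, and the difference in response was -2.12 ± 1.19 (limma adjusted p = 0.356). LCN2 was higher in both lines, with 31.3, 202 and 283 RPKM in MDA-MB-436.

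**Figure D4:**
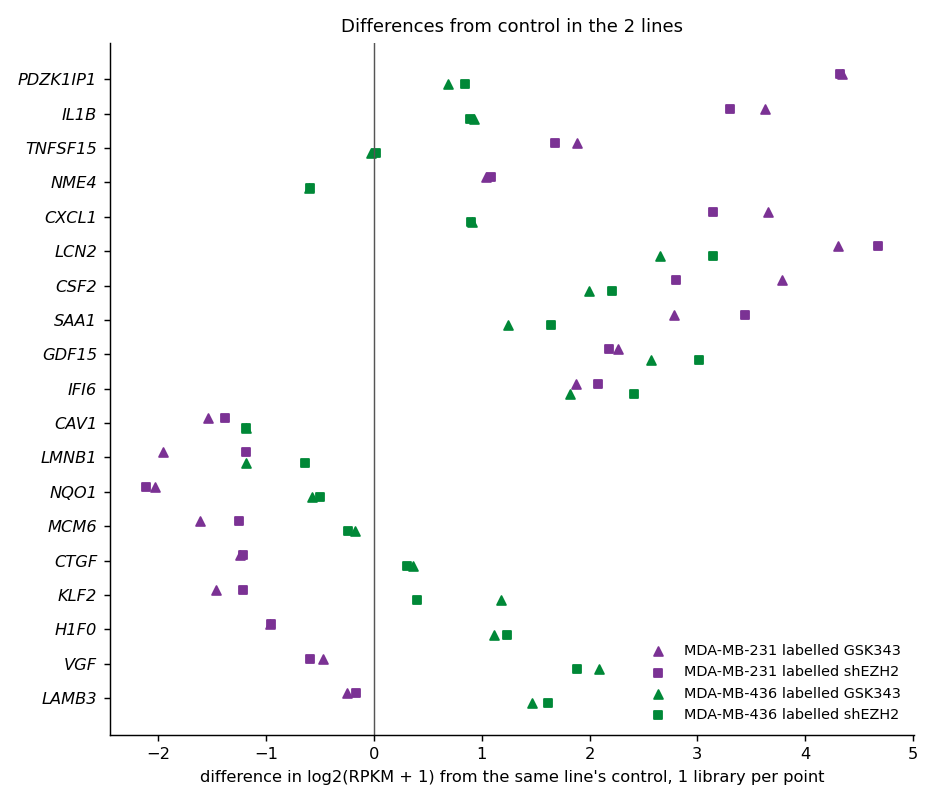
Differences in log2(RPKM + 1) from the control of the same line for MDA-MB-231 (purple) and MDA-MB-436 (green), with triangles for the GSK343-labelled and squares for the shEZH2-labelled library. PDZK1IP1 lies at 4.34 and 4.32 in MDA-MB-231 and at 0.69 and 0.84 in MDA-MB-436, while H1F0 lies at -0.96 and -0.95 against 1.11 and 1.23.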

How the data were processed

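The authors deposited 1 table of RPKM values (58037 genes, 9 columns, 0 left unused). Per the submitters' processing notes, STAR, HTSeq and GRCh38 were used. The sources used here state no versions, annotation or strand setting. RPKM multiplied by GENCODE 29 exon length (92.5% of identifiers in the same version, lengths of 1039 further genes solved from the values) gave whole reads for 100% of values within 0.05 of a read, and ratio intervals (95%, exact conditional binomial, SciPy 1.17.1) rest on these reads. Coordinates of genes are GENCODE 29 positions.

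Values were transformed to log2(RPKM + 1) with a pseudocount of 1. limma 3.58.1 (R 4.3.3, statmod 1.5.0) used trended moderation, two-sided p and Benjamini-Hochberg adjustment over 12464 genes, and was tested on simulated data. The members, the 38 gene lists and the tests were chosen with earlier results of these data known. Named genes are, per direction, the 10 with the largest smaller difference under both labels, the 5 that differ most between labels, up to 4 per list, 4 PRC2 genes, 5 per direction by p and 10 by p of the line difference. Because those rules picked short RNAs with few reads, the 20 and 15 strongest genes with at least 50 reads were added after seeing values. IL6, IL11, IL32, C1R, CD55, CD59, PTX3, SERPING1, CD74, HLA-DPB1, SQSTM1, HIST genes, PCNA, TYMS, SCD, COL13A1, COL8A1, NF-kB subunits, line markers and the promoter motifs were also chosen after seeing values. Alternatives were other pseudocounts, filters, scalings, moderation settings and sets of libraries.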

Additional observations from a re-analysis of the deposited data

How the results depend on the processing

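The counts of 2-fold genes moved with the pseudocount and the filter. They are given as higher and lower for the GSK343 label, the shEZH2 label, the mean of both, and the GSK343-labelled over the shEZH2-labelled library. A pseudocount of 0.1 gave 734 and 334, 967 and 360, 758 and 236, and 285 and 468. A pseudocount of 0.5 gave 495 and 154 for the mean and 168 and 281 between the labels. A mean RPKM of at least 5 gave 170 and 62, 211 and 74, 161 and 43, and 30 and 73. At least 50 reads in 1 library (added after seeing the data) gave 88, 84 and 55 lower and 32 higher between the labels, and a common RPKM sum gave 58 higher between the labels. In limma the 5 higher and 1 lower became 8 higher with a pseudocount of 0.1, 1 and 63 without a filter, 52 and 13 at a mean RPKM of 5, 2 lower without the trend, 438 and 230 with all 9 libraries, and 78 and 11 with the 3 MDA-MB-231 libraries alone. Leaving out 1 library gave from 0 to 890 higher and from 0 to 572 lower: 18 higher without the MDA-MB-436 control, 99 and 19 without its GSK343-labelled and 97 and 19 without its shEZH2-labelled library. Of the 6 calls, 2 were kept without a filter and 5 without the trend. The difference between lines had 1 higher at a mean RPKM of 5 and 1 higher and 2 lower with all 9 libraries, and from 0 to 1 higher with 1 library left out. The cause was not tested. No named gene past the 2-fold mark changed direction under these alternatives. No paired analysis was possible because MDA-MB-231 has 1 library per condition; line is a term of the limma fit. The depth limits short RNAs most.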
